A study of Mus musculus with 7 samples.

Results

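The 35 genes described here are a set of hepatocyte genes, taken by symbol from a list of plasma protein and metabolic genes, out of 20354 genes in the deposited count table. All 35 had a row, and all 35 passed the filter on low counts. They comprise 19 secreted plasma proteins and 16 enzymes, of which 5 belong to the urea cycle, 9 to amino acid breakdown (with glutamine synthesis) and 2 to gluconeogenesis. RNA was sequenced from nonparenchymal cells (NPCs), the liver cells that remain when hepatocytes are removed, so these transcripts were measured in a fraction depleted of the cells that make them. The KO group held 3 libraries from untreated mice of genotype Shp2f/f:Clec4f-Cre+/- at 2 months of age, in which Cre under the Kupffer cell gene Clec4f deletes Ptpn11, the gene of the phosphatase Shp2. The WT group held 4 libraries from untreated mice of the same age labelled WT, and whether they carried the floxed allele is not given in the sources used here. Both groups are labelled C57BL/6J, and the labels do not say that each library came from a separate mouse, so the p-values measure the spread between libraries, which may be technical. One KO library carries the genotype entry Shp1 and another Shp3, while all 3 titles name Shp2, and the titles were followed.

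Hepatocytes secrete most of the protein in blood plasma, including albumin, apolipoproteins, transport proteins and clotting factors, and raise serum amyloid A and fibrinogen in the acute phase response. Inside the cell they turn amino acid nitrogen into urea and carbon skeletons into glucose, and several of the enzymes are induced by glucagon and glucocorticoids in fasting. The urea cycle and gluconeogenesis are strongest in periportal hepatocytes, while glutamine synthetase is confined to the cells around the central vein. Some enzymes of the set are also made outside hepatocytes, such as arginase 1 in macrophages and glutamine synthetase in many cell types.

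The promoters of 8 genes named in the results are shown. Alb, Fga and Gc are among the 17 secreted proteins that moved together. They are also the only 3 matched genes with the HNF1 letters described below, so they do not stand for all 17. Saa1 and Saa2 are the pair that moved apart from the 17. Tat and Pck1 had the most negative fold changes, and Hal was the enzyme with the opposite sign. Each sequence is the 200 bases before the RefSeq start on GRCm38.p6, 5′ to 3′ on the gene's strand. Capitals mark matches to the motifs below. RefSeq promoters were matched for 27 of the 35 genes, 16 secreted proteins and 11 enzymes, and Ttr, Kng1, Orm1, Cps1, Asl, Arg1, Sds and Gls2 had no entry used here.
Alb, chr5:90460670-90460869, plus strand: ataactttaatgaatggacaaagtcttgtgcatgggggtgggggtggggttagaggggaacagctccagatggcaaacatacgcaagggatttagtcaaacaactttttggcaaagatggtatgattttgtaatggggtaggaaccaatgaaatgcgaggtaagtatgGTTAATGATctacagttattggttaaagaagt
Fga, chr3:83025953-83026152, plus strand: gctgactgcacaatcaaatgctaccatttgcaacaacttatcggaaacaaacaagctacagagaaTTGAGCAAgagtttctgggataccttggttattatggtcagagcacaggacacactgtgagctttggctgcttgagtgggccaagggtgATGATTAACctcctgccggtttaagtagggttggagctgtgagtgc
Gc, chr5:89457899-89458098, minus strand: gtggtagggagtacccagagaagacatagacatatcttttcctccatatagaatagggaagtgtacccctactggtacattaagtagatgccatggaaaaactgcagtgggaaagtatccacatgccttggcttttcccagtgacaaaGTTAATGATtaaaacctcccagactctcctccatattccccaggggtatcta
Saa1, chr7:46742981-46743180, minus strand: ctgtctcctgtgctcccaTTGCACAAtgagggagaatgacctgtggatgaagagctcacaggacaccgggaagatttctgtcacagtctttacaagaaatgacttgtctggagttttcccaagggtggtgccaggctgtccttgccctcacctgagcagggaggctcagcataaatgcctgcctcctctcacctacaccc
Saa2, chr7:46751633-46751832, plus strand: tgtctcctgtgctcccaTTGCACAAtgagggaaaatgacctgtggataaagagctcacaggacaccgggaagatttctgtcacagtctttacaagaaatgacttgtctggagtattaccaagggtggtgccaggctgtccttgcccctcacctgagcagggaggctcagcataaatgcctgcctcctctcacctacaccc
Tat, chr8:109990236-109990435, plus strand: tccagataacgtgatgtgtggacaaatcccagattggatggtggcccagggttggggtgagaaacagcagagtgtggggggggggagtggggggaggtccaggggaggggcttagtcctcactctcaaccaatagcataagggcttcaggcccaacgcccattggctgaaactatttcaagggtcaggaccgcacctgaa
Pck1, chr2:173152873-173153072, plus strand: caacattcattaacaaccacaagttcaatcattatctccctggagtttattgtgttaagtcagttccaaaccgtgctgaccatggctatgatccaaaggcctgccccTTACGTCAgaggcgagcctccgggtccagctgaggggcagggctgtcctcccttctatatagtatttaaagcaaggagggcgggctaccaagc
Hal, chr10:93488568-93488767, plus strand: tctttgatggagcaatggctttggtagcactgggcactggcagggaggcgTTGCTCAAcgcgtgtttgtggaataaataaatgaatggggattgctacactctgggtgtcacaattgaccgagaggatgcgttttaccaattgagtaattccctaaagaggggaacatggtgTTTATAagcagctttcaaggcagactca

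Motifs were searched on both strands in the 250 bases before each start, and a match describes letters, not a site. The letters GTTAATNAT, from the site of the hepatocyte factor HNF1, were in the promoters of Alb, Fga and Gc. These were 3 of the 16 matched secreted proteins, beside 0 of the 11 matched enzymes and 0.737% of 32851 promoters. TTGCNCAA, from the C/EBP site, was in 6 (Fga, Fgb, Saa1, Saa2, Hal and Hgd) and in 2.61% of all promoters. TTACGTCA, from the cAMP response element, was in Pck1 and in 0.447% of all promoters. The TATA box letters TATAAA were in 6 (Apoa2, Apob, Rbp4, Hal, Hgd and Tdo2) and in 12.4% of all promoters. No 2 matched motifs overlapped in the 8 sequences shown. The Tat sequence held none of the 4. Saa1 and Saa2 were identical at 195 of 201 aligned positions, or 97.0%.

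Total counts were 15263666 to 32003205 in KO libraries and 11678385 to 26545605 in WT libraries. Levels are given in CPM, counts scaled to library size with TMM factors. A count of 0 would allow up to 3 counts, or at most 0.249 CPM. The lowest count of any of the 35 genes in any library was 32. The genes together took 5.91%, 3.86% and 2.98% of counts in KO replicates 1 to 3, and 3.29%, 4.26%, 4.81% and 7.61% in WT replicates 1 to 4. Ptpn11, the targeted gene, averaged 78.6 ± 8.12 CPM in KO and 83.6 ± 8.57 CPM in WT libraries (SD, n = 3 and 4), summed over all cells of the fraction, of which Kupffer cells are only a part. Clec4f lay at 436 to 865 CPM in KO and 1386 to 2656 CPM in WT libraries. The 10 Kupffer cell markers summed to 3562 to 4595 CPM in KO and 4830 to 9783 CPM in WT libraries. The 12 sinusoidal endothelial markers summed to 5702 to 8725 CPM in KO and 5106 to 13760 CPM in WT libraries. Alb alone lay above each of these sums in every library, at 13914 to 45775 CPM. How far hepatocytes were depleted was not tested. Of the Kupffer cell markers 9 of 10 had a negative log2 fold change, 6 of them at unadjusted p under 0.05 in edgeR. T and NK cell markers were negative in 10 of 11, with 2 lower at that level, and their sum was 204 to 529 CPM in KO and 252 to 787 CPM in WT libraries, highest in WT replicate 3. Stellate cell markers were negative in 3 of 11, with 3 higher at that level and sums of 972 to 1635 CPM in KO and 1144 to 1685 CPM in WT libraries. Neutrophil markers had a median of 0.74 on the log2 scale over 7 tested, with 1 lower and 1 higher, and sums of 64.3 to 342 CPM in KO and 39.3 to 119 CPM in WT libraries. Macrophage markers summed to 3685 to 4585 CPM in KO and 3226 to 5315 CPM in WT libraries, cholangiocyte markers to 78.3 to 130 CPM and 65.4 to 91.1 CPM, B cell markers to 278 to 418 CPM and 302 to 358 CPM, and erythroid markers to 40.9 to 63.1 CPM and 24.7 to 122 CPM. Negative fold changes were found in 10 of 12 endothelial, 6 of 10 macrophage and 0 of 7 cholangiocyte markers tested. The same held for 1 of 7 B cell, 3 of 7 neutrophil and 3 of 4 erythroid markers tested. At unadjusted p under 0.05 in edgeR, 1 B cell marker was higher, and no endothelial, macrophage, cholangiocyte or erythroid marker passed. Of these markers, 1 erythroid gene was at 0 in a library. Their part in the results below was not tested. Mitochondrial transcripts took 33.2% of counts in KO replicate 2 and 17.3% to 22.4% in the others, and the ribosomal gene Rn18s took 7.54% in KO replicate 3 and at most 0.122% in the others.

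Secreted plasma protein transcripts went up and down together from library to library and showed no call between genotypes. Enzyme transcripts leaned lower in the KO group without passing the test, and not in every KO library. The median log2 fold change (KO over WT) was -0.06 over the 19 secreted proteins and -0.65 over the 16 enzymes, beside 0.01 over all 14077 genes tested. Of the secreted proteins 14 lay below 0, and of the enzymes 15, with Hal the exception. Over all genes 48.3% lay below 0. Of 30 other hepatocyte genes 25 lay below 0, with a median of -0.14, so a negative sign was common among hepatocyte genes. On leaving out KO replicate 3 the enzyme median was -0.41 with 12 of 16 below 0, and on leaving out WT replicate 4 it was -0.41 with 11 below 0 (both with TMM scaling). None of the 35 genes was called (edgeR quasi-likelihood test, 0 of 35), and 0% of all genes were. At unadjusted p under 0.05 there were 2, Tat and Asl, both lower, where 2.35% of all genes were lower and 2.27% higher. DESeq2 called 1 of the 35, Tat, as lower, where 0.398% of all genes were. It put 7 of the 35, all enzymes, lower at an unadjusted p below 0.05, beside 3.1% of all genes. KO and WT values did not overlap in 1 gene, Asl, which was lower, beside 3.05% of all genes lower and 3.03% higher. For the 35 genes the edgeR adjusted p ran from 0.782 to 0.997, so below each fold change is given as log2 KO over WT with its SE, and a p is given only for Tat, Asl and the wider lists. In bulk RNA, fewer hepatocytes or less hepatocyte RNA cannot be told apart from less transcript per cell.

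**Figure D1:**
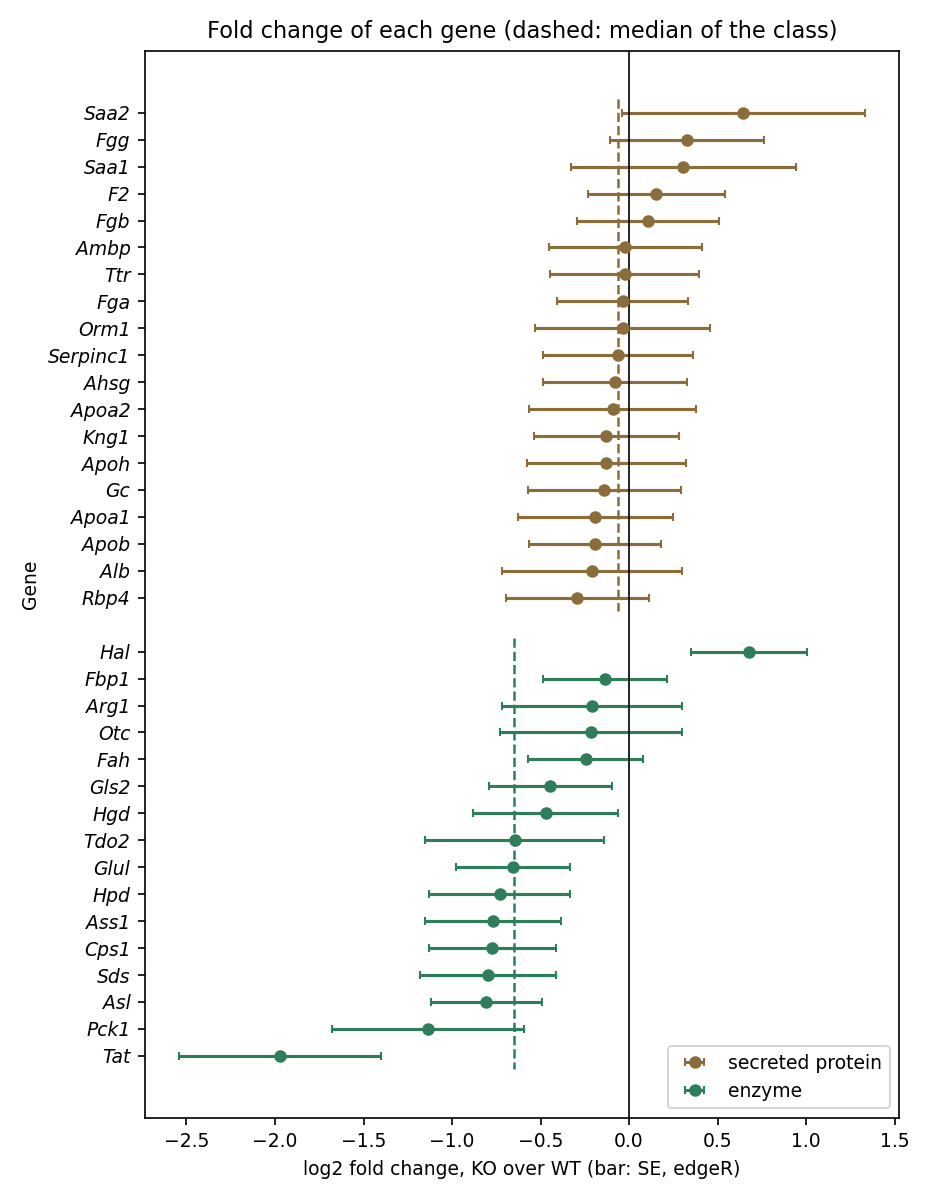
The horizontal axis gives the edgeR log2 fold change (KO over WT) with its SE for each of the 35 genes, secreted proteins above and enzymes below, and the dashed lines are the class medians of -0.06 and -0.65. Most secreted proteins sit near 0, and 15 of the 16 enzymes lie left of it.

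Albumin, the main plasma protein and the most abundant transcript of the set per length, stood at 33164, 22596 and 13914 CPM in KO libraries, against 15325, 23833, 22487 and 45775 CPM in WT libraries. KO replicate 3 was the lowest library and WT replicate 4 the highest, and the groups overlapped (log2 -0.21 ± 0.51). Per kilobase of transcript, Alb averaged 11418 CPM in KO and 13203 CPM in WT libraries. Next came Apoa2, the second apolipoprotein of high-density lipoprotein, at 3879 CPM per kilobase in KO and 4137 CPM per kilobase in WT libraries. Among the enzymes Arg1 was at 466 CPM per kilobase in KO and 539 CPM per kilobase in WT libraries, while Sds was at 6.14 CPM per kilobase in KO and 10.7 CPM per kilobase in WT libraries.

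WT replicate 4 held the highest CPM of 17 of the 19 secreted proteins, and the other 2 were Saa1 and Saa2. WT replicate 1 held the lowest value of 11, KO replicate 3 of 4, WT replicate 2 of 3 and KO replicate 1 of 1. Without the Saa genes, the highest library was 2.53 to 4.49 times the lowest, from Apob, the structural protein of low-density lipoprotein, to Orm1, an acute phase glycoprotein. Fold changes of these 17 lay between -0.29 and 0.33 on the log2 scale, with SEs of 0.37 to 0.51. The class also holds Apoa1, the main protein of high-density lipoprotein, Ahsg, an inhibitor of mineral deposition, and Serpinc1, the thrombin inhibitor antithrombin, all of which followed this pattern. Rbp4, the plasma carrier of retinol, was the most negative of the class, with 558, 549 and 327 CPM in KO libraries against 346, 395, 581 and 1018 CPM in WT libraries. The groups overlapped (log2 -0.29 ± 0.40). Without WT replicate 4 it was 0.12, and all 19 secreted proteins were then above 0, with 0 below and a median of 0.38. Without KO replicate 3 the median was 0.09.

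Some secreted proteins followed albumin closely. Gc, the vitamin D binding protein and a relative of albumin, had 81.1, 93.4 and 85.6 counts per 1000 Alb counts in KO libraries, against 84.6, 83.0, 84.4 and 79.1 in WT libraries. Its highest ratio was 1.18 times its lowest, the narrowest range of the 34 genes set against Alb. Kng1, the precursor of bradykinin, followed at 1.32 times and Apob at 1.41 times. Ttr, which carries thyroxine, ranged 3.11 times, with 59.3 counts per 1000 Alb counts in KO replicate 3 and 19.1 to 30.7 in all other libraries. Ambp, the precursor of alpha-1-microglobulin, ranged 2.60 times and was also highest in KO replicate 3.

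The 3 fibrinogen chains form one clotting protein and rise in the acute phase. Fgg, the gamma chain, was named after its values were seen. It had 1653, 1443 and 837 CPM in KO libraries, against 619, 757, 891 and 1912 CPM in WT libraries. The highest and the lowest library were both WT (log2 0.33 ± 0.44). Relative to albumin it stood at 49.8, 63.9 and 60.2 counts per 1000 Alb counts in KO libraries, against 40.4, 31.8, 39.6 and 41.8 in WT libraries. Every KO library lay above every WT library on this ratio, and Fgg was the 1 gene of 34 for which that held. Of all genes set against Alb, 0.604% had higher ratios without overlap and 0.483% lower. These shares cover genes of all cell types, and on the CPM scale they were 3.03% and 3.05%. They are therefore not the shares among hepatocyte genes. The alpha and beta chains overlapped between groups: Fga stood at 26.2, 27.6 and 40.2 counts per 1000 Alb counts in KO libraries, against 28.5, 27.7, 24.1 and 25.4 in WT libraries. Fgb stood at 37.3, 41.4 and 46.1 in KO libraries, against 37.5, 32.1, 28.1 and 32.9 in WT libraries. F2, prothrombin, had 441, 457 and 413 CPM in KO libraries, and WT libraries lay on both sides of these, at 239, 307 and 286 CPM in replicates 1 to 3 and 740 CPM in replicate 4.

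Serum amyloid A genes, whose products join high-density lipoprotein in the acute phase, did not follow the other secreted proteins. Saa1 had 9.69, 35.3 and 48.7 CPM in KO libraries, against 13.4, 6.83, 43.9 and 36.9 CPM in WT libraries. Saa2 had 1.33, 8.46 and 14.9 CPM in KO libraries, against 4.26, 1.66, 7.31 and 7.65 CPM in WT libraries. Both were highest in KO replicate 3 and low in KO replicate 1 and WT replicate 2, so each genotype held high and low libraries. The highest library was 7.13 times the lowest for Saa1 and 11.2 times for Saa2. On the log2 scale Saa1 was at 0.31 ± 0.64 and Saa2 at 0.65 ± 0.69. Without KO replicate 3 they were -0.17 and -0.12, and without WT replicate 2 Saa1 was at -0.01. The transcripts of the pair are near-identical and reads may have been split between them, so the separate values are uncertain. The 6 acute phase genes (Saa1, Saa2, Orm1, Fga, Fgb and Fgg) had a median of 0.21 on the log2 scale, with 4 above 0 and 2 below. Over all genes 7274 of 14077 were above 0. Of acute phase genes outside these 6, Hp was at -0.42 ± 0.50 and Apcs at -0.20 ± 0.58. Orm2, at 1.48 to 5.86 CPM, was at 0.19 ± 0.46. Orm3 was at -0.24 ± 0.66, but at 0.309 to 1.41 CPM, with a lowest count of 5, it lay close to the limit of 0.249 CPM.

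**Figure D2:**
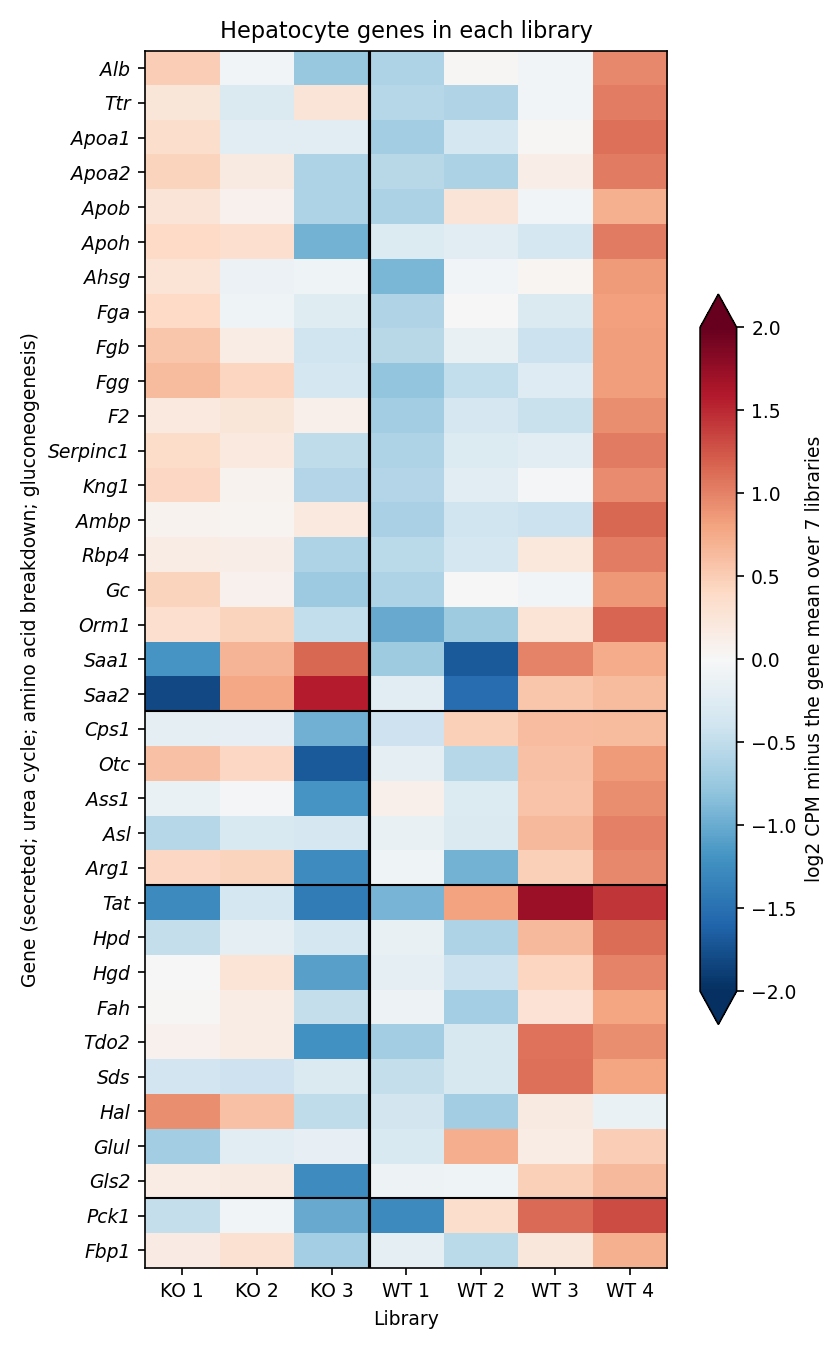
Each cell gives log2 CPM minus the gene's mean over the 7 libraries (colour, -2 to 2), with KO libraries left of the vertical line, WT libraries right of it, and black lines between secreted proteins, urea cycle, amino acid breakdown and gluconeogenesis. WT replicate 4 is high for 17 of 19 secreted proteins, Saa1 and Saa2 are low in KO replicate 1 and WT replicate 2, and Tat is high in WT replicates 2 to 4.

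The urea cycle turns ammonia into urea, and all 5 of its measured enzymes had negative log2 fold changes, with a median of -0.77. Asl, argininosuccinate lyase, which releases arginine, had 50.8, 61.6 and 59.9 CPM in KO libraries, against 68.5, 61.9, 118 and 153 CPM in WT libraries. Every KO library lay below every WT library, but KO replicate 2 and WT replicate 2 were 61.6 and 61.9 CPM, almost the same. Asl was at -0.81 ± 0.31 (log2; edgeR unadjusted p = 0.0267, adjusted p = 0.956), or -0.53 without WT replicate 4. Relative to albumin the groups overlapped, at 1.53, 2.73 and 4.31 counts per 1000 Alb counts in KO libraries, against 4.47, 2.60, 5.27 and 3.33 in WT libraries.

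The other urea cycle enzymes overlapped between groups on the CPM scale. Cps1, the mitochondrial entry enzyme of the cycle, had 769, 784 and 451 CPM in KO libraries, against 655, 1213, 1337 and 1354 CPM in WT libraries. WT replicate 1 fell inside the KO range and the other 3 WT libraries above it. Cps1 was at -0.77 ± 0.36 (log2). Ass1, argininosuccinate synthase, had 556, 595 and 270 CPM in KO libraries, against 656, 506, 905 and 1162 CPM in WT libraries (log2 -0.77 ± 0.39). In Ass1, WT replicate 2 was the one WT library below the highest KO library. Cps1 and Ass1 were named after their values were seen. Arg1, which makes urea from arginine, had 881, 907 and 278 CPM in KO libraries, against 623, 344, 926 and 1289 CPM in WT libraries. WT replicates 1 and 2 lay inside the KO range, WT replicates 3 and 4 above it (log2 -0.21 ± 0.51, or 0.17 without KO replicate 3 and 0.13 without WT replicate 4). Otc, the ornithine carbamoyltransferase of mitochondria, had 431, 385 and 90.2 CPM in KO libraries, against 253, 194, 433 and 522 CPM in WT libraries, with KO replicate 3 the lowest and the groups overlapping.

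Tat had the most negative log2 fold change of the 35 genes. It encodes tyrosine aminotransferase, which starts tyrosine breakdown and is a classic target of glucocorticoids. It had 196, 375 and 181 CPM in KO libraries, against 250, 832, 1561 and 1283 CPM in WT libraries. WT replicates 2, 3 and 4 lay above every KO library, and WT replicate 1 lay inside the KO range. Tat was at -1.97 ± 0.57 (log2; edgeR unadjusted p = 0.00605, adjusted p = 0.782). It ranged from -2.39 to -1.65 under all alternatives, with adjusted p of 0.0263 in DESeq2 and 0.253 to 0.989 in the rest. Relative to albumin Tat stood at 5.92, 16.6 and 12.99 counts per 1000 Alb counts in KO libraries, against 16.3, 34.9, 69.4 and 28.0 in WT libraries, where WT replicate 1 again lay inside the KO range. Per kilobase, Tat averaged 105 CPM in KO and 413 CPM in WT libraries.

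Hpd, Hgd and Fah follow Tat on the path of tyrosine to fumarate and acetoacetate. Hpd, the next enzyme, was named after its values were seen and had 316, 387 and 345 CPM in KO libraries, against 394, 288, 686 and 953 CPM in WT libraries (log2 -0.73 ± 0.40). WT replicate 2 was the lowest of all 7 libraries. Hgd had 235, 281 and 110 CPM in KO libraries, against 206, 172, 313 and 465 CPM in WT libraries. Fah, the last enzyme of the path, had 130, 142 and 91.5 CPM in KO libraries, against 119, 79.9, 155 and 220 CPM in WT libraries. In Hgd and Fah, WT replicates 1 and 2 lay inside or below the KO range and WT replicates 3 and 4 above it.

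Tdo2, Sds, Gls2 and Glul act on other amino acids. Tdo2, which opens tryptophan breakdown, had 751, 778 and 303 CPM in KO libraries, against 434, 563, 1491 and 1336 CPM in WT libraries (log2 -0.65 ± 0.51). Sds, serine dehydratase, had 7.81, 7.63 and 8.28 CPM in KO libraries, against 7.29, 8.13, 22.1 and 17.6 CPM in WT libraries (log2 -0.80 ± 0.39). Tdo2 and Sds, both named after their values were seen, were high in WT replicates 3 and 4, while WT replicates 1 and 2 lay inside or below the KO range. Glul, glutamine synthetase of pericentral hepatocytes, had 442, 615 and 640 CPM in KO libraries, against 578, 1183, 795 and 1011 CPM in WT libraries. WT replicate 1 lay inside the KO range, and WT replicate 2 held the highest value (log2 -0.66 ± 0.32). WT replicate 2 also had the highest endothelial, Kupffer cell and macrophage marker sums. Gls2, the liver glutaminase, had 94.7, 97.6 and 35.8 CPM in KO libraries, against 80.3, 80.9, 119 and 134 CPM in WT libraries, with KO replicate 3 lowest and WT replicates 1 and 2 inside the KO range.

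Hal, histidine ammonia-lyase, the first step of histidine breakdown, was the 1 enzyme of 16 with a positive log2 fold change. It had 165, 129 and 60.5 CPM in KO libraries, against 66.8, 53.1, 97.6 and 78.5 CPM in WT libraries. KO replicates 1 and 2 lay above every WT library and KO replicate 3 lay inside the WT range. Hal was at 0.68 ± 0.33 (log2), and it stayed positive, from 0.36 to 0.99, under all alternatives.

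Gluconeogenesis was represented by Pck1 and Fbp1. Pck1, phosphoenolpyruvate carboxykinase, which fasting induces through cAMP, had 499, 665 and 346 CPM in KO libraries, against 288, 888, 1530 and 1722 CPM in WT libraries. WT replicate 1 was the lowest of all, and the other 3 WT libraries lay above every KO library. Pck1 was at -1.14 ± 0.54 (log2), from -1.45 to -0.76 under the alternatives. Fbp1, fructose-bisphosphatase, had 331, 365 and 183 CPM in KO libraries, against 259, 202, 344 and 484 CPM in WT libraries. The groups overlapped (log2 -0.14 ± 0.35), and the sign was opposite without WT replicate 4 (0.13) or KO replicate 3 (0.11).

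**Figure D3:**
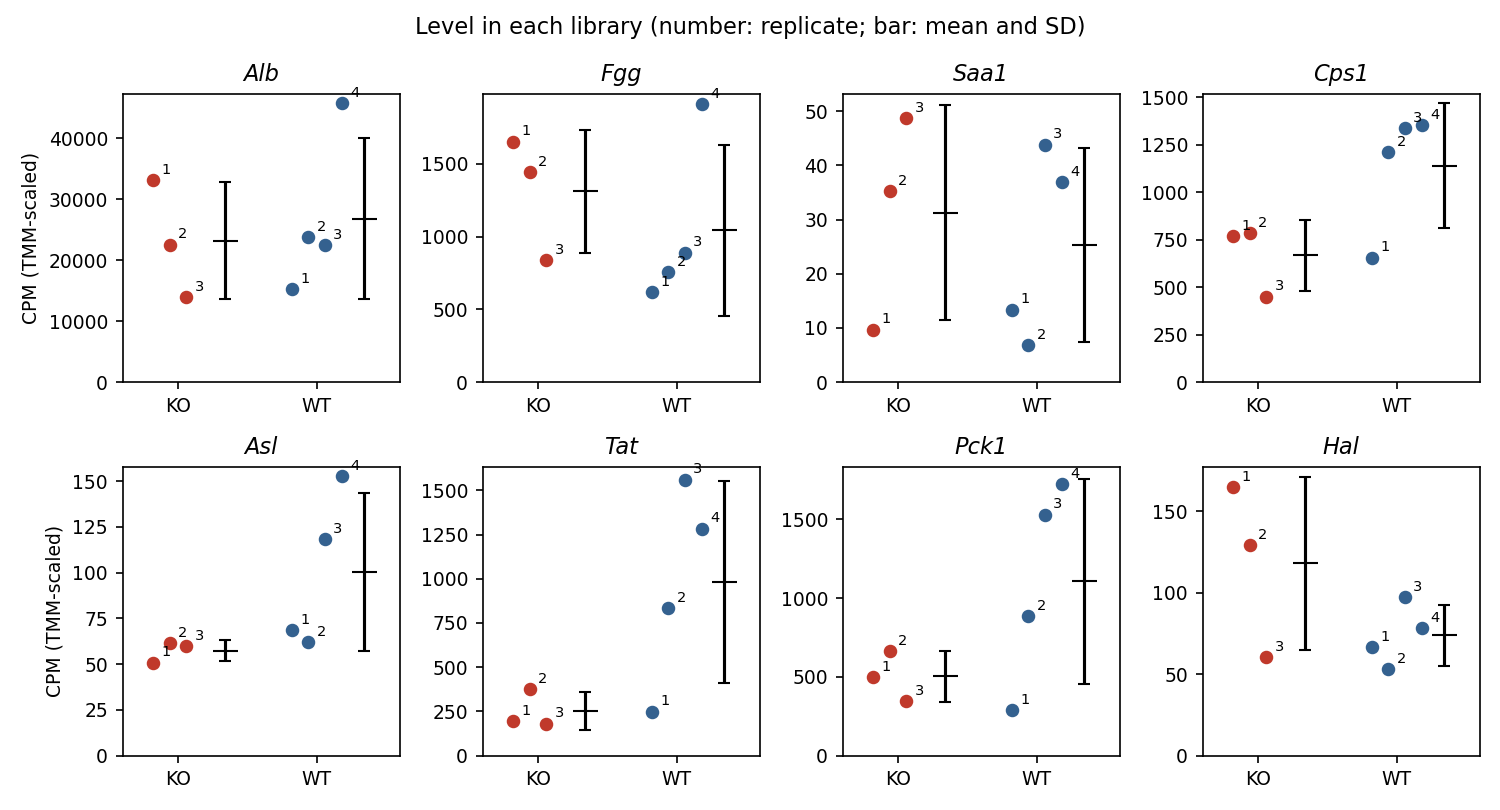
Each panel gives the CPM of 1 gene in every library, KO in red and WT in blue, with replicate numbers beside the points and the mean and SD as black bars. Alb, Fgg and Saa1 overlap widely, the WT values of Cps1, Tat and Pck1 lie above the KO values except in WT replicate 1, Asl does not overlap, and Hal is highest in KO replicates 1 and 2.

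The 5 enzymes listed as induced by fasting or glucocorticoids (Tat, Tdo2, Sds, Pck1 and Cps1) were all below 0. Their median was -0.80 and their range, on the log2 scale, -1.97 to -0.65. Of all 16 enzymes 15 were below 0, with a median of -0.65. The list of 5 was fixed with earlier results of these data known and is not complete. G6pc, a glucose metabolism gene outside it, was at -0.24 ± 0.52 (log2), with its highest value in KO replicate 2. Over all 16 enzymes, WT replicate 4 lay above every KO library in 15, WT replicate 3 in 14, WT replicate 2 in 5 and WT replicate 1 in 3. Over the 19 secreted proteins, the same counts were 17, 1, 0 and 0. Thus WT replicate 3 exceeded the KO libraries in enzymes and in 1 secreted protein, and WT replicate 4 in both classes.

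Within a library the classes were compared by their median of log2 CPM after subtracting each gene's mean, a description with no test. The secreted median minus the enzyme median was 0.41, 0.07 and 0.58 in KO replicates 1 to 3, against -0.43, -0.01, -0.63 and 0.05 in WT replicates 1 to 4. The KO libraries lay above the WT libraries, but KO replicate 2 (0.07) and WT replicate 4 (0.05) were nearly equal. The enzyme median itself was -0.06, 0.05 and -0.98 in KO replicates 1 to 3, against -0.19, -0.32, 0.58 and 0.89 in WT replicates 1 to 4. KO replicates 1 and 2 thus lay above WT replicates 1 and 2. KO replicate 3 held the lowest value of 9 of the 16 enzymes. Secreted proteins took 5.31%, 3.29% and 2.61% of counts in KO libraries, against 2.74%, 3.59%, 3.69% and 6.52% in WT libraries, and these overlapped. Enzymes took 0.604%, 0.573% and 0.366% in KO libraries, against 0.555%, 0.671%, 1.12% and 1.09% in WT libraries, where WT replicate 1 alone lay inside the KO range.

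**Figure D4:**
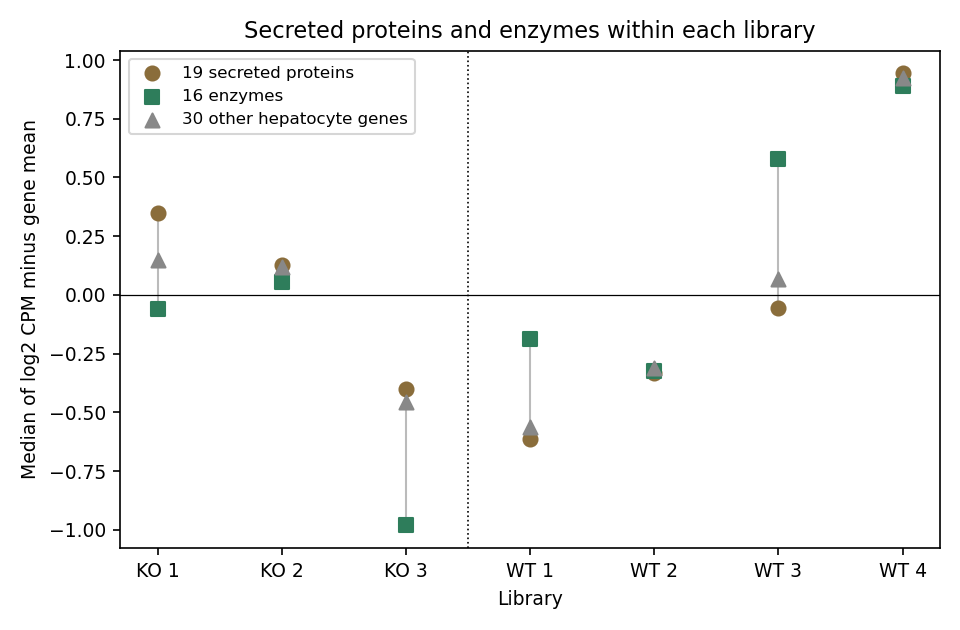
The vertical axis gives the median over genes of log2 CPM minus the gene mean, for 19 secreted proteins (circles), 16 enzymes (squares) and 30 other hepatocyte genes (triangles), in each library, KO left of the dotted line. In KO replicates 1 and 3 the enzymes lie below the secreted proteins, in WT replicates 1 and 3 above them, and in KO replicate 2 and WT replicates 2 and 4 both lie close together.

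Each library was also scaled to the summed counts of 30 other hepatocyte genes, so that fold changes are relative to hepatocyte RNA. Before scaling, the lowest and highest of the 30, -0.89 and 0.21, equalled the values of Mat1a and Agxt. Both are in the wider enzyme list described below, so the 30 appear to overlap it and need not be neutral between the classes. The scaling put the secreted median at 0.15 and the enzyme median at -0.48. On that scale 3 of 19 secreted proteins and 15 of 16 enzymes were below 0, and 0 of 35 were called (edgeR), with 1, Tat, lower at unadjusted p under 0.05 beside 1.03% of all genes. The SEs were large there whatever the spread of the gene. Rbp4 had an SE of 0.52, though it ranged only from 16.7 to 19.9 per 1000 counts of the 30 genes. For Ptpn11 the SE was 0.52, against 0.18 with TMM. The absence of calls on that scale therefore says little. Per 1000 counts of the 30 genes, the groups did not overlap in 4 of the 35. Fgg and F2 were higher, beside 1.16% of all genes, and Tat and Ass1 lower, beside 0.611%. As with the ratio to Alb, these shares cover genes of all cell types. Tat stood at 6.89, 12.2 and 9.20 in KO libraries, against 13.5, 40.0 and 53.5 in WT replicates 1 to 3 and 23.8 in WT replicate 4. Ass1 stood at 19.5, 19.4 and 13.7 in KO libraries, against 35.5, 24.3, 31.0 and 21.6 in WT libraries. Fgg stood at 58.0, 47.1 and 42.6 in KO libraries, against 33.5, 36.4, 30.6 and 35.5 in WT libraries. The closest pair was in F2, with 14.9 in KO replicate 2 and 14.8 in WT replicate 2.

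Wider lists of the same pathways had class medians closer to each other, a description with no test. Of 54 other secreted hepatocyte proteins tested, 45 were below 0, beside 48.3% of all genes, and their median was -0.15 on the log2 scale. None was called in edgeR, DESeq2 or voom (0 of 54), and 0 had an unadjusted p below 0.05 in edgeR. Of 51 other enzymes of amino acid, urea and glucose metabolism, 43 were below 0, with a median of -0.20. None was called in edgeR, DESeq2 or voom (0 of 51), and 2, Got1 and Ahcy, were lower at an unadjusted p below 0.05 in edgeR, a share near the 2.35% of all genes. DESeq2 put 5 of the 51 at that level in either direction, beside 5.53% of all genes. When scaled to hepatocyte RNA as above, the median was 0.05 over the 54 secreted proteins, with 21 below 0. Over the 51 enzymes it was -0.03, with 29 below 0. The class difference on that scale was thus much smaller in the wider lists than in the 35 genes. The genes used for scaling appear to overlap the wider enzyme list, so they need not be neutral here either.

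Got1, cytosolic aspartate aminotransferase, had 104, 179 and 102 CPM in KO libraries, against 156, 209, 353 and 281 CPM in WT libraries (log2 -0.96 ± 0.33; edgeR adjusted p = 0.946). Ahcy, which clears S-adenosylhomocysteine, had 113, 162 and 79.1 CPM in KO libraries, against 155, 126, 274 and 309 CPM in WT libraries (log2 -0.87 ± 0.37; edgeR adjusted p = 0.956). Acmsd, of tryptophan breakdown, had 8.81, 8.82 and 3.59 CPM in KO libraries, against 5.91, 9.42, 23.9 and 19.2 CPM in WT libraries (log2 -1.03 ± 0.49; edgeR adjusted p = 0.956). In each of these 3, WT replicates 3 and 4 were the highest libraries, as in Tat, Tdo2 and Sds, and WT replicate 1 lay inside the KO range. Among the wider secreted proteins, the clotting factor gene F5 and Serpina6, the corticosteroid-binding globulin, were among those with the smallest p. F5 had 98.6, 84.9 and 53.8 CPM in KO libraries, against 64.8, 113, 94.2 and 161 CPM in WT libraries (log2 -0.45 ± 0.32). Serpina6 had 77.9, 62.5 and 27.8 CPM in KO libraries, against 56.3, 89.2, 66.6 and 89.3 CPM in WT libraries (log2 -0.43 ± 0.32). In both, KO replicate 3 was the lowest library and the groups overlapped (edgeR adjusted p = 0.956 each).

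Amdhd1, a later enzyme of histidine breakdown named after its value was seen, had 60.0, 42.5 and 18.7 CPM in KO libraries, against 20.7, 20.4, 28.7 and 35.9 CPM in WT libraries (log2 0.61 ± 0.36; edgeR adjusted p = 0.956). As for Hal, KO replicates 1 and 2 were its highest libraries, and KO replicate 3 was its lowest. Other enzymes of the same path did not share this. Uroc1, the step between Hal and Amdhd1, was at -0.28 ± 0.28 (log2), highest in WT replicate 4 and lowest in KO replicate 3. Ftcd, a later step, was at 0.02 ± 0.35.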

How the data were processed

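The authors deposited raw counts, whole numbers with no scaling, for 20354 genes in 7 libraries. FastQC 0.11.9, STAR 2.7.10a, SAMtools 1.9, featureCounts 2.0.3 and GRCm39 are named in the submitters' processing notes. Annotation and settings are not stated there. Per the labels' protocols, Illumina's TruSeq v2 chemistry was used. It keeps no strand, so overlapping antisense genes cannot be told apart. Groups follow the titles. Every pair of the 7 libraries differed by more than sampling noise, with chi-square values of 30.9 to 237 for each degree of freedom.

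Genes were tested with the quasi-likelihood method of edgeR 4.0.16 in R 4.3.3 on the 14077 genes that filterByExpr kept (minimum count 10, minimum total 15), with TMM factors, robust estimation and group as the only term. Benjamini-Hochberg adjustment ran over all these genes, with a threshold of 0.05. Each standard error is the fold change divided by the root of its F statistic. Log2 CPM used a prior count of 2. Lengths are those of the longest protein-coding GENCODE M21 transcript, so levels per kilobase are approximate. Promoters are RefSeq's on GRCm38.p6, used for sequence only.

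Alternatives were DESeq2 1.42.0, limma 3.58.1 voom with and without library quality weights, other scalings (one to 30 hepatocyte genes outside the set), other filters, and leaving out libraries. The scripts were tested on simulated data. The genes and lists were chosen with earlier results of these data known. Full values are given for Alb, genes at unadjusted p under 0.05 or without overlap, the extremes of each list, Saa1, Saa2, Glul and Arg1, and the 3 smallest p in each wider list, of which 1 is not reported here. Of the wider lists, 2 genes lacked a row.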

Additional observations from a re-analysis of the deposited data

Results flagged for a closer look

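In 4 secreted protein genes, WT replicate 4 stood far above the other WT libraries, with a gap to the nearest library that took most of the range of the 4 WT values. The share of the range taken by the gap was 0.942 for Apoh, which binds phospholipids (1328 CPM in WT replicate 4 and 508 to 556 CPM in the other WT libraries). It was 0.925 for Ambp (938 CPM, and 270 to 320 CPM in the others) and 0.863 for F2 (740 CPM, and 239 to 307 CPM in the others). For Serpinc1, antithrombin, it was 0.854 (1175 CPM, and 375 to 492 CPM in the others). Chance flags about 1 in 20 groups, and 35 were looked at. The genes move together, so these are not separate observations. WT replicate 4 also held the largest share of counts from the 30 other hepatocyte genes, 4.82% against 2.07% to 3.01% in the other WT libraries.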

How the results depend on the processing

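No paired analysis was possible because the groups share no replicate numbers in the labels. The 0 calls among the 35 genes became 1 in DESeq2 (Tat, log2 fold change -1.98) and stayed 0 under all other alternatives. The count at unadjusted p under 0.05 was 2 of 35 in the edgeR test as reported, beside 4.62% of all genes. It was 7 in DESeq2 (5.53% of all genes), 3 with voom (4.53%), 8 with voom and library quality weights (11.5%), 6 by library size alone (4.07%), 1 scaled to other hepatocyte genes (1.95%), 6 with no filter (4.76%) and 4 without WT replicate 2 and KO replicate 3 together (7.58%). Leaving out single libraries gave 2 to 6 (3.61% to 5.93% of all genes). The secreted median ranged from -0.25 to 0.38 and the enzyme median from -0.84 to -0.41 on leaving out 1 library. With voom and quality weights, signs turned for Alb (0.17), Arg1 (0.0191), Fbp1 (0.0386), Saa1 (-0.58) and Saa2 (-0.97). Without WT replicate 2 and KO replicate 3 together they turned for Alb (0.0004), Saa1 (-0.49) and Saa2 (-0.44). Over single libraries left out, Alb ranged from -0.56 to 0.18, Arg1 from -0.47 to 0.17, Fbp1 from -0.34 to 0.13, Rbp4 from -0.47 to 0.12, Saa1 from -0.17 to 0.73 and Saa2 from -0.12 to 1.15 (log2 fold changes). None of these was called, and the causes were not tested. The lowest count was 32, in Saa2, and whether depth limits the calls was not tested.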
